A study of Bos taurus with 6 samples.

Results

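The transcriptome of vehicle-treated granulosa cells was described from 3 cultures that had received DMSO, which are 3 of the 6 samples of the series. Gene expression was read on bovine gene arrays as log2 signal per transcript cluster, a set of probes designed to read 1 transcription unit. All 19683 clusters with a single gene name were ranked by the mean log2 signal of the 3 cultures, and the first 300 of them were taken as the members. These members were therefore chosen by the measured level itself, so their high signal is a description and was given no test. No comparison with the inhibitor-treated cultures was made.

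The cells were primary bovine granulosa cells aspirated from small and medium follicles, frozen, thawed, and kept for 4 d on collagen-coated plates in serum-free medium with FSH, IGF1 and androstenedione. On day 2 they received the vehicle DMSO for 2 h, after which the medium was replaced. The 3 cultures are named here culture 1, 2 and 3 after their replicate numbers. Whether they came from separate animals or from 1 pool of follicles is not stated, so the spread between them may be partly technical.

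Granulosa cells line the follicle and surround the oocyte. Under FSH they aromatise androgens from the theca to estradiol and secrete inhibins, activins and follistatin. After the ovulatory LH surge they luteinise, and their steroid output turns to progesterone, for which they import cholesterol by lipoprotein receptors, move it into the mitochondria with STAR, and convert pregnenolone with 3β-hydroxysteroid dehydrogenase. In serum-free culture with FSH and IGF1, bovine granulosa cells can keep features of the follicular state.

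The signal of a cluster depends on how well its probes bind as well as on the amount of RNA. A place in the ranking is thus a place by signal, and a low signal does not show that a gene was silent. The arrays were alike after normalization, with medians of 4.68, 4.70 and 4.68 in cultures 1, 2 and 3. Over all 24415 clusters Pearson's r was between 0.9943 and 0.995 for the 3 pairs of cultures. These are correlations over genes, and genes are no replicates of one another. A background level of 3.69 was set at the 95th percentile of 363 clusters of olfactory receptors, receptors of the nose that serve here as a stand-in for genes without expression. By that rule 19 of these 363 lay above it, as did 15321 of all clusters (62.8%) and 13239 of the named ones (67.3%).

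The 5 genes used to check the cell type were all above background in every culture, and none of them was among the first 300. INHA, which encodes the inhibin α subunit, had 9.86, 9.88 and 10.01 in cultures 1, 2 and 3 and stood at rank 416. STAR, the mitochondrial cholesterol carrier, had 8.57, 8.54 and 8.57 at rank 1642. CYP19A1, the aromatase that makes estradiol, had 7.33, 7.68 and 7.72 at rank 3613. CYP19A1 was thus lower in culture 1 than in both others, while INHA was highest in culture 3 and STAR was level. FSHR, the FSH receptor, had 7.37, 7.46 and 7.51, and FOXL2, a transcription factor of female gonadal identity, had 7.47, 7.31 and 7.54, at ranks 3898 and 3916. The signals of CYP19A1, FSHR and FOXL2 overlapped across the cultures, so their order is not settled, whereas INHA lay above STAR and STAR above these 3 in every culture. Lying above background does not by itself single out a cell type, since 67.3% of named clusters did so, some markers of other cells among them.

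**Figure D1:**
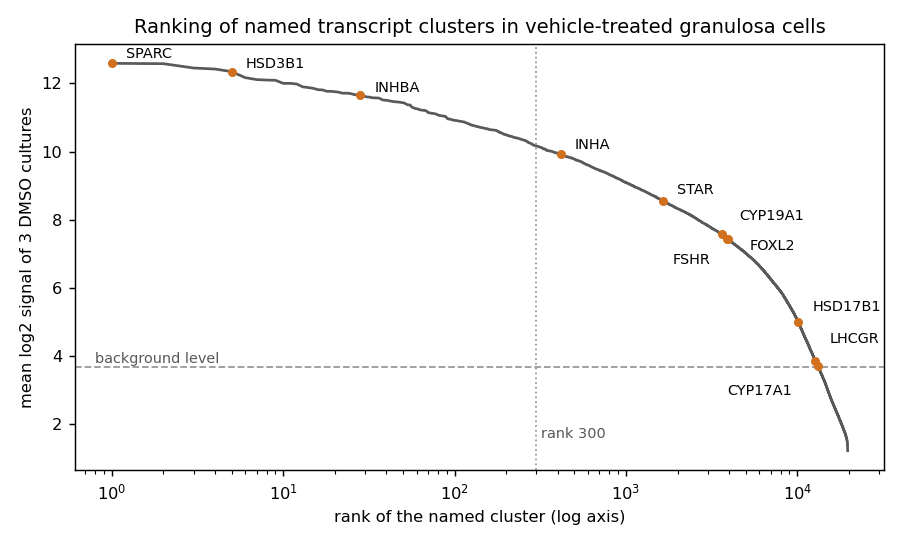
Mean log2 signal of the 3 DMSO cultures (vertical axis) against the rank of each named cluster (horizontal axis, log scale), with 11 ovarian and matrix genes marked by points. The dashed line is the background level of 3.69 and the dotted line is rank 300; SPARC leads the ranking at 12.59, INHA lies outside the first 300, and CYP17A1 lies at the background level.

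The 300 members made up 1.52% of the named clusters, and their mean signals ran between 12.59 and 10.17. They carried 297 different names, since RPL12, RPL23A and the uncharacterised LOC104973810 each held 2 places. Different names need not be different genes. LOC100849362 and 1 of the RPL23A clusters, for instance, had identical values of 10.95, 10.97 and 10.97. Uncharacterised LOC names took 29 places. The deposited table lists several symbols for 19 of the 300, among them GAPDH, FTL, MFGE8, TMEM254 and ARF4, so genes listed together cannot be told apart there. Of the first 300 clusters by signal whether named or not, 234 had a single gene name and 66 did not, and 14 of the first 20 were without one. The members are therefore the strongest named signals and not the strongest signals on the array.

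The order within the 300 was steady between cultures as a set and loose from gene to gene. Ranked by culture 1, 2 or 3 alone, 293, 292 and 295 of the members stayed among the first 300, and 283 did so in all 3 rankings. The lowest place that any member took in a single culture was 328. Signals of neighbours in the ranking overlapped between the cultures in 297 of 299 pairs, so that neighbouring ranks seldom differed beyond their spread. In the first 30, the 2 exceptions among 29 pairs were the steps below GAPDH and below HSD3B1. At the edge, ARPC4, WDR1 and EZR were the last members, each with a mean of 10.17, and RPL36AL, GSTA5 and TMEM259 followed at 10.17 as well. Within 1 median SD of the edge lay 17 members inside and 19 clusters outside.

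The first place was held by SPARC, a secreted protein that binds collagen and calcium. Its signal was 12.61, 12.57 and 12.59 in cultures 1, 2 and 3. GAPDH, a glycolytic enzyme, had 12.62, 12.52 and 12.60, and ACTB, cytoplasmic actin, had 12.48, 12.44 and 12.44. The ranges of SPARC and GAPDH overlapped, whereas ACTB lay below both in all cultures. RPL10, a protein of the large ribosomal subunit, followed with 12.44, 12.38 and 12.45.

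The fifth place belonged to a steroidogenic enzyme. HSD3B1, the 3β-hydroxysteroid dehydrogenase that makes progesterone from pregnenolone, had 12.37, 12.29 and 12.38. All 3 values lay above those of SCD, the desaturase that makes monounsaturated fatty acids, which had 12.16, 12.14 and 12.21. UBB (a polyubiquitin gene), LAPTM4B (a lysosomal membrane protein) and TIMP1 (an inhibitor of matrix metalloproteinases) came next, with means of 12.11, 12.10 and 12.09.

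Other members of the first 30 encoded ER, matrix and storage proteins. HSPA5, the main chaperone of the ER lumen, had 11.90, 11.86 and 11.88. FTL, the light chain of the iron store ferritin, had 11.78, 11.79 and 11.88. IGFBP7, a secreted IGF-binding protein, averaged 11.81, and MFGE8, a secreted glycoprotein that bridges dying cells to phagocytes, and LUM, a small proteoglycan of collagen fibrils, each averaged 11.77. SRGN, which encodes the core protein of the granule proteoglycan serglycin, had 11.71, 11.85 and 11.59. Its range of 0.26 was among the 10 widest of the members, whereas HSPA5 spanned 0.04. INHBA, the βA subunit of inhibin and activin, stood at rank 28 with 11.60, 11.70 and 11.67. Further places were taken by ribosomal proteins (among them RPS2, RPL18 and RPL23), the translation factors EEF1G and PABPC1, the glycolytic enzymes ENO1 and ALDOA, HIF1A, the actin-binding TMSB10, the filament protein VIM, TMEM254 and CLCA3.

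Genes of granulosa identity lay mostly in the upper part of the ranking, 21 of 26 above the 50th percentile, with 4 at or below background. Of 26 measured members of the granulosa list, 22 were above background, 11 lay above the 90th percentile, and 5 (19.2%) were among the 300, beside 1.52% of all named clusters. The median of the list lay at the 83.4th percentile of the ranking, where all named clusters have 50 by construction. The list was drawn up with the tissue and earlier results of these arrays in view, so its high place describes the cells and tests nothing.

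Among the hormone genes of this list INHBA stood highest. Beside it, FST, which encodes the activin-binding protein follistatin, was a member at rank 150 with 10.67, 10.68 and 10.70. INHBB, the βB subunit, had 9.18, 9.35 and 9.32, and was lowest in culture 1. AMH, the anti-Müllerian hormone of small growing follicles, had 6.04, 5.80 and 5.92. Its receptor AMHR2 had 6.51, 6.48 and 6.42, so that hormone and receptor were both above background, at the 59.7th and 67.2nd percentiles.

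Genes for cell contacts were also among the members. GJA1, the gap junction protein that couples granulosa cells, had 11.59, 11.59 and 11.56 at rank 33. SERPINE2, a protease inhibitor secreted by granulosa cells, averaged 11.37 and CDH2, N-cadherin, averaged 11.21. These 3 and INHBA and FST were the list's members of the 300, and none of them spanned more than 0.10 between the cultures. CCND2, the D-type cyclin that FSH controls in granulosa cells, lay outside at rank 359 with a mean of 10.02 and an SD of 0.02. The transcription factors GATA6, NR5A2 and FOXO1 averaged 9.67, 9.23 and 9.14, ahead of ESR2, the estrogen receptor β of granulosa cells, with 7.87, GATA4 with 7.58 and NR5A1 with 7.09. A further cluster of GATA4 read 5.05, 5.04 and 5.03 and was not used for the ranks of the lists.

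At the low end, HSD17B1, which reduces estrone to estradiol, had 4.71, 5.36 and 4.97. This was the widest spread of any member of the granulosa list, with culture 1 at the bottom as for CYP19A1. The members at or below background were WNT4 (3.57, 3.64 and 3.56), NR0B1 (3.34, 3.74 and 3.12), TNFRSF11B (3.20, 3.28 and 3.26) and IHH (3.03, 3.00 and 3.08). WNT4 and IHH encode signalling ligands, and NR0B1 a nuclear receptor that represses steroidogenic genes. NR0B1 was above the background level in culture 2 alone.

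Of the 22 measured genes of steroid synthesis, 19 were above background, 2 (9.09%) were members, and the median lay at the 77.9th percentile. SCARB1, the receptor that takes cholesterol from high-density lipoprotein, was the second member beside HSD3B1, with 10.85, 10.75 and 10.92 at rank 118. POR, the electron donor of microsomal P450 enzymes, averaged 9.57 and FDX1, the donor of the mitochondrial ones, had 8.22, 8.30 and 8.28. SCARB1 spanned 0.17, with culture 2 lowest. At the other end CYP17A1, the androgen-making enzyme of theca cells, had 3.72, 3.86 and 3.55, which straddles the background level. AKR1C3, AKR1C4 and SULT1E1, enzymes that reduce or conjugate steroids, averaged 2.38, 1.73 and 1.67. A single-name cluster for CYP11A1 was not among those ranked, and this gene is not analysed here.

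**Figure D2:**
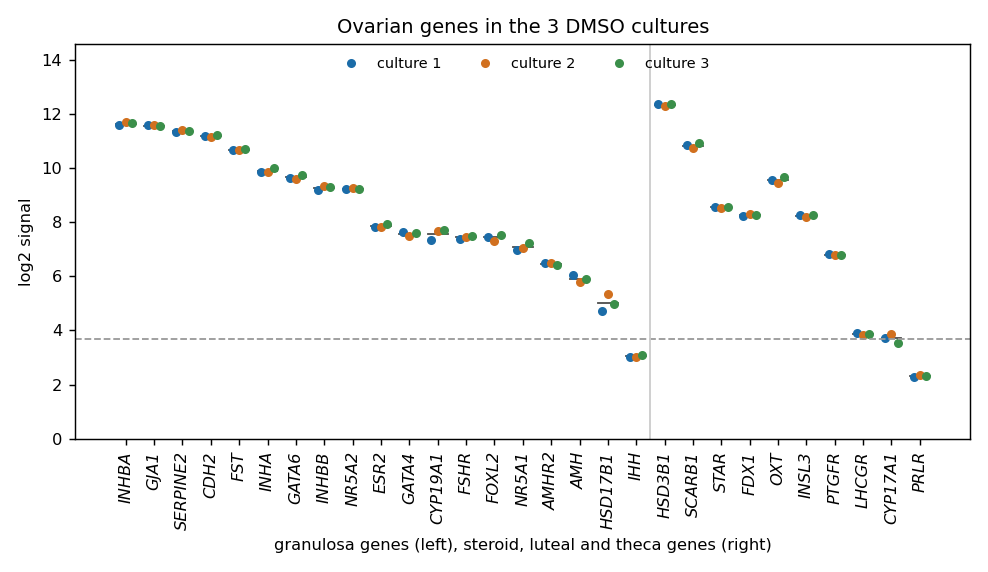
Log2 signal of 29 ovarian genes in culture 1, 2 and 3 (coloured points) with the mean of the 3 (short line); the dashed line is the background level of 3.69. Granulosa genes stand left of the vertical line, ordered by mean, and genes of steroid synthesis, corpus luteum and theca right of it; CYP19A1 and HSD17B1 show culture 1 lowest, and PRLR and IHH lie below background in all 3 cultures.

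Genes of the corpus luteum stood high as a list, while LHCGR, PRLR and PTGER3 lay low. Of 22 measured luteal genes, 20 were above background, 12 lay above the 90th percentile and 5 (22.7%) were members, with the median at the 92.3rd percentile. HSD3B1, SCARB1 and STAR stand on the steroid list too. TIMP1 and TIMP2, metalloproteinase inhibitors, were members at ranks 9 and 44, and both stand also on the list of extracellular matrix. TIMP2 had 11.46, 11.47 and 11.47, and a further cluster of TIMP2 averaged 7.66. IGFBP5, an IGF-binding protein, was the fifth luteal member, with 10.33, 10.32 and 10.47.

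OXT, which encodes the hormone oxytocin that the ruminant corpus luteum secretes, had 9.57, 9.47 and 9.66 at rank 622. PTGFR, the receptor by which prostaglandin F2α ends luteal life, had 6.82, 6.78 and 6.81. The LH receptor LHCGR had 3.91, 3.83 and 3.86, just above background, and the prolactin receptor PRLR had 2.29, 2.36 and 2.33, below it. Each of these 4 genes varied by less than 0.20 between the cultures, and their signals did not overlap. PTGER3, a prostaglandin E receptor, averaged 2.09.

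Genes that the LH surge induces in granulosa cells lay lower as a list, with a median at the 61.1st percentile. Of 24 measured, 20 were above background and 1 was a member, VCAN, a large proteoglycan of the expanding cumulus matrix, with 10.70, 10.74 and 10.71. TNFAIP6, which cross-links hyaluronan in that matrix, averaged 9.86 and was highest in culture 2. PTGS2, the inducible cyclooxygenase, had 6.69, 6.30 and 6.53. The EGF-like ligands AREG (1.66, 2.12 and 2.13), BTC (2.33, 2.46 and 1.95) and EREG (3.38, 3.76 and 3.24) and the hyaluronan synthase HAS2 (3.33, 2.81 and 3.09) had means below background. EREG passed the level in culture 2 alone.

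Receptors for hormones and growth factors had a median at the 75.9th percentile, and 27 of 29 lay above the 50th. Of the 29, 28 were above background and 1 was a member, IL6ST, the signalling subunit shared by the IL6 family of cytokines, with 10.27, 10.10 and 10.17. The IGF receptor IGF1R had 9.32, 9.27 and 9.41. The BMP receptors BMPR2, BMPR1A and BMPR1B averaged 8.83, 8.22 and 8.15. PRLR was the only receptor of this list below background.

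Markers of other ovarian and blood cells were examined next. In these bulk samples, fewer cells of a type and less RNA per cell cannot be told apart. The stromal and smooth muscle list had 20 of 23 measured genes above background and 2 (8.70%) among the 300, with a median at the 68.4th percentile. LUM had 11.76, 11.82 and 11.73 at rank 19, and POSTN, a matrix protein of fibroblasts, had 11.52, 11.48 and 11.52 at rank 40. The collagen genes COL1A2 and COL3A1 had 9.92, 9.92 and 9.88, and 9.52, 9.62 and 9.61. DCN, a collagen-binding proteoglycan, had 9.25, 9.24 and 9.20, and PDGFRA, the receptor of mesenchymal cells for platelet-derived growth factor, had 8.38, 8.26 and 8.38. These 6 genes were above background in all cultures and none of them spanned more than 0.12.

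Other defining genes of the same list were low. The fibroblast marker FAP (2.37, 2.31 and 2.37), the pericyte marker RGS5 (2.02, 2.60 and 2.70) and the proteoglycan gene OGN (2.64, 2.47 and 2.39) were below background. The smooth muscle genes MYH11 (4.01, 3.57 and 3.98) and DES (3.70, 3.83 and 3.78) lay at about that level. Summed over the list on the linear scale, the signal was between 10288 and 10370 in the 3 cultures. LUM and POSTN make up most of this sum, and the largest range of a single gene in the list was 0.68. How much other cells contributed to the stromal genes was not tested.

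Theca genes had a median at the 35th percentile, with 9 of 12 above background and none among the 300. INSL3, the insulin-like hormone of theca cells, was the highest of these 4 with 8.29, 8.19 and 8.28, while CYP17A1 and LHCGR stood at the background as given above. The hedgehog targets GLI1 (3.69, 3.77 and 3.56) and HHIP (2.40, 2.63 and 2.91), which theca cells express, had means below it. The summed linear signal was between 713 and 754, and the part of theca cells in the INSL3 signal was not tested.

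Endothelial, blood and germ cell markers were mostly at background. Of 11 endothelial genes 3 were above it, CLDN5, VWF and ESAM, and PECAM1, KDR and TIE1 were below, with a summed signal between 153 and 164. Of 18 leukocyte genes 8 were above it, led by CD68 with 6.66, 6.75 and 6.60 and CD14 with 6.01, 6.09 and 5.84. PTPRC, the defining surface protein of leukocytes, was below with 3.09, 2.98 and 3.07, and the list summed to between 366 and 378. Of 7 erythroid genes 1 was above, HBQ1, and HBB was below, with a sum between 118 and 132. None of these lists had a member among the 300. Members were 1.52% of all named clusters, so lists of this size may well hold none.

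Of 15 oocyte genes 4 were above background. KIT, the receptor through which oocytes answer the KIT ligand of granulosa cells, had 8.75, 8.47 and 8.66, and KITLG, that ligand, had 7.94, 7.81 and 7.87. The oocyte hormones GDF9 (2.67, 3.20 and 2.73) and BMP15 (3.03, 2.94 and 2.88) were below background. The list summed to between 480 and 555 on the linear scale, where KIT, its highest gene, makes up most of the sum. The surface epithelium list had 9 of 14 above background, near the share of 67.3% over all named clusters, and a sum between 1202 and 1258. The uroplakin gene UPK1B led it with 9.60, 9.76 and 9.66, while EPCAM (1.96, 2.03 and 2.18) and MUC16 (3.07, 3.06 and 2.81) were below background. KIT thus stood apart from the other genes of its list, the next being NOBOX with 4.06, 4.27 and 4.17. UPK1B was also the highest of its list by a wide step, but other epithelial genes were above background too. Among them were CDH1 with 7.23, 7.21 and 7.19 and the keratin gene KRT8 with 6.21, 5.74 and 5.78. A list of genes of distant tissues had 15 of 41 above background and a median at the 28.5th percentile, led by APOA1, the main protein of high-density lipoprotein, with 7.45, 7.53 and 7.53.

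**Figure D3:**
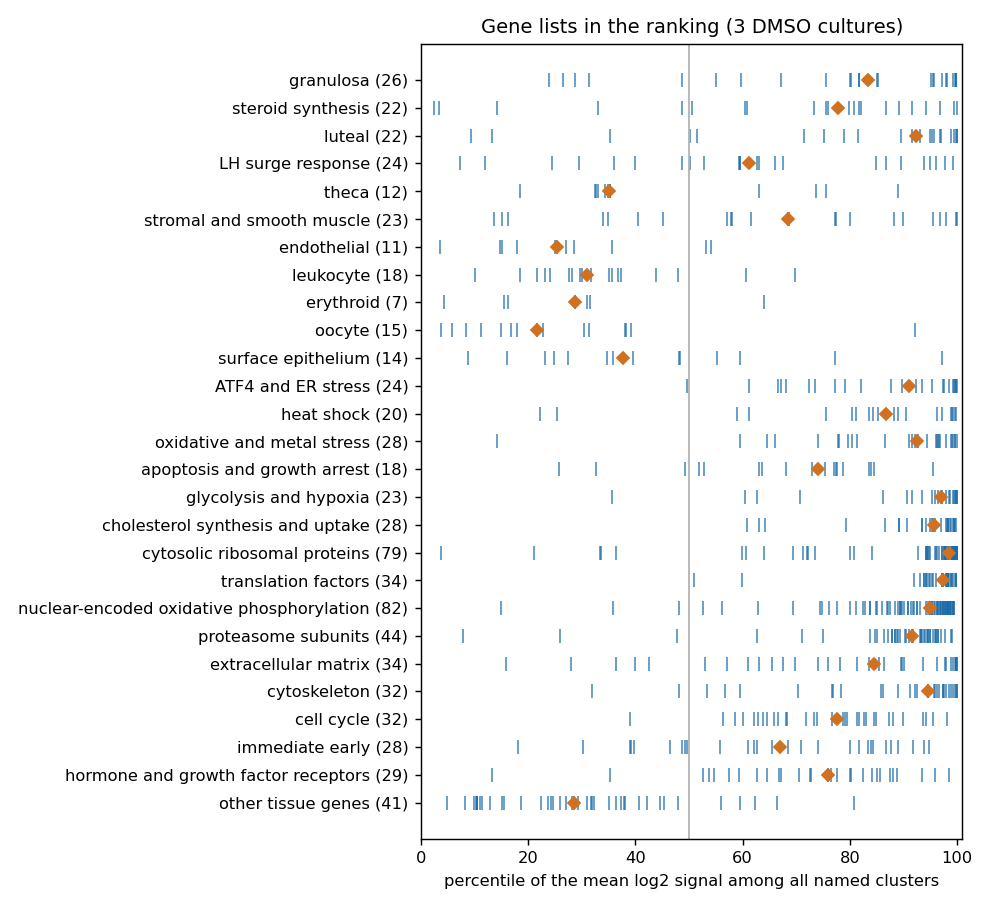
Place of 27 gene lists in the ranking, with the percentile of the mean log2 signal among all named clusters on the horizontal axis, 1 tick per measured gene, a diamond at the list's median, and the number of measured genes in brackets. Ribosomal, translation, glycolysis and cholesterol genes crowd at the right edge. Granulosa genes lie mostly in the right part with a median of 83.4, and most endothelial, leukocyte, oocyte and distant tissue genes lie at the left.

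Stress genes had list medians between the 74.1st and 92.5th percentiles, and chaperones led the ER stress and heat shock lists. All 24 measured genes of the ATF4 and ER stress list were above background, 7 (29.2%) were members, and the median lay at the 91.0th percentile. Beside HSPA5 the members were the chaperones PDIA3, CANX, HSP90B1 and CALR, which averaged 11.42, 11.40, 11.22 and 10.91, and 2 transcription factors. ATF4, the effector of the integrated stress response, had 10.66, 10.69 and 10.77, and XBP1, which responds to unfolded proteins in the ER, had 10.22, 10.13 and 10.20. HERPUD1, which serves ER-associated degradation, and ASNS, the asparagine synthetase induced by ATF4, followed at ranks 471 and 519.

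Further targets of this response had middle signals. DDIT3, a pro-apoptotic target of ATF4, had 7.68, 7.52 and 7.62, and TRIB3, a further ATF4 target, had 6.11, 6.01 and 5.92. ATF3, a stress-induced transcription factor, was lowest of the list with 5.08, 5.0 and 5.18. The largest range in the list was 0.23, so the cultures were close for all of its genes.

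Of 20 heat shock genes 18 were above background and 5 (25.0%) were members, with a median at the 86.7th percentile. The members were HSPA8, HSPB1, the mitochondrial chaperones HSPE1 and HSPA9, and HSP90AA1, with means of 11.44, 11.13, 10.71, 10.56 and 10.38. HSPA1A, the classic heat-inducible chaperone, had 7.43, 7.48 and 7.50. HSPD1, which works in a complex with HSPE1, read only 5.79, 5.82 and 6.01. HSPB8 and HSPA1L were below background with 2.90 and 3.15.

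The list of oxidative and metal stress had 27 of 28 genes above background, 6 (21.4%) among the 300, and a median at the 92.5th percentile. FTL led it, followed by GSTA1, a glutathione transferase that granulosa and luteal cells are known to express, with 11.05, 11.22 and 11.17. The peroxidases PRDX2, GPX1, GPX4 and PRDX1 averaged 11.05, 10.64, 10.62 and 10.41. HMOX1, which degrades heme, averaged 7.26, and the quinone reductase NQO1 averaged 5.91. GSTP1, a further glutathione transferase, was the only one below background, at 2.38.

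The list of apoptosis and growth arrest had 16 of 18 genes above background, beside 67.3% of all named clusters, with a median at the 74.1st percentile. None was among the 300, which held 1.52% of all named clusters. CDKN1A, an inhibitor of cyclin-dependent kinases, had 9.26, 9.13 and 9.27. MDM2, a ubiquitin ligase, had 7.86, 7.59 and 7.73, and MCL1, which protects from apoptosis, had 7.72, 7.77 and 7.94. The pro-apoptotic PMAIP1 averaged 3.18 and BBC3 averaged 3.68, both below background.

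Protein synthesis supplied the largest share of the 300 among the lists examined. Of 79 measured cytosolic ribosomal protein genes 77 were above background and 38 (48.1%) were members, with a median at the 98.4th percentile. Beside RPL10, the leading ones included RPS2, RPL18 (11.62, 11.67 and 11.65) and RPL23 (11.61, 11.65 and 11.59). The proteins of the ribosome are needed by every cell, yet the clusters of RPS14 (2.75, 2.84 and 2.89) and RPL21 (3.76, 3.67 and 3.77) were near or below background and that of RPS23 was between 2.86 and 4.71. Such low signals belong to these clusters and say little of their genes. Close copies of ribosomal protein genes are common, and their probes may read more than 1 of them.

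All 34 translation factors were above background and 8 were members, with the median at the 97.4th percentile. EEF1G had 11.67, 11.75 and 11.72 and PABPC1, which binds poly(A) tails, had 11.67, 11.64 and 11.68. RACK1 and EEF2 averaged 11.44 and 11.25. EEF1A1, which carries aminoacyl-tRNA to the ribosome, lay just outside the members at rank 315, with 10.24 in culture 1 and 10.08 and 10.09 in cultures 2 and 3.

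The secretory pathway was well represented. This list and those of vesicle coats and lysosomes were drawn up after the ranking had been seen, so their counts only sort the members. Of 21 genes of the oligosaccharyltransferase and the translocon, which glycosylate and import proteins at the ER, 7 were members, led by STT3A (10.94, 10.85 and 10.90), RPN2 (10.70, 10.70 and 10.71) and DDOST (10.69, 10.67 and 10.73). Of 24 genes of the COPI and COPII coats of transport vesicles 7 were members, led by TMED2 with a mean of 10.88 and COPA with 10.81. ARF4, also counted there, is listed together with DENND6A. Of 35 lysosomal genes 13 were members, among them the sialic acid transporter SLC17A5 (11.60), the protease CTSD (11.22) and LIPA (10.36, 10.37 and 10.36), the acid lipase that frees cholesterol from its esters.

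Genes of the extracellular matrix had 8 members among 34 measured, with 32 above background and a median at the 84.5th percentile. SPARC, TIMP1, TIMP2, SERPINE2 and VCAN have been given above. P4HB, a subunit of the enzyme that hydroxylates collagen, had 11.24, 11.28 and 11.33, and SERPINH1, the collagen chaperone, had 11.07, 11.11 and 11.16. FN1, fibronectin, had 10.30, 10.41 and 10.42. The basal lamina genes LAMA1 and LAMB1 followed outside the members with 9.86 and 9.43. BGN and LAMA4 were below background with 3.36 and 2.48.

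Genes of the cytoskeleton had 7 members among 32 measured and a median at the 94.6th percentile. VIM, the intermediate filament of mesenchymal and granulosa cells, had 11.68, 11.69 and 11.72. TMSB10 and TMSB4X, which bind actin monomers, averaged 11.86 and 10.95. The keratins KRT8 (6.21, 5.74 and 5.78) and KRT18 (5.0, 4.88 and 4.99) were far lower by signal.

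Energy and lipid metabolism supplied further members. All 23 genes of glycolysis and hypoxia were above background, 9 (39.1%) were members, and the median lay at the 96.9th percentile. ENO1 had 11.72, 11.77 and 11.78 and ALDOA had 11.62, 11.68 and 11.72, although a second cluster of ALDOA averaged 4.70. HIF1A, the transcription factor of the hypoxic response, had 11.75, 11.66 and 11.73. LDHA (5.97, 6.27 and 6.13) and PGAM1 (6.18, 5.79 and 5.93), enzymes of the same pathway, were far down. CA9, a classic hypoxia target, averaged 3.91.

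Of 82 nuclear genes of oxidative phosphorylation 81 were above background and 10 (12.2%) were members, with a median at the 94.9th percentile. ATP5F1B, the catalytic subunit of ATP synthase, had 10.98, 10.85 and 10.90, and COX6A1, of cytochrome c oxidase, had 10.84, 10.89 and 10.82. COX7B2, an isoform of testis, was the only one below background, with 2.43, and COX6A2, an isoform of muscle, averaged 6.14.

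All 28 genes of cholesterol synthesis and uptake were above background and 7 (25.0%) were members, with the median at the 95.7th percentile. HMGCS1, an early enzyme of the mevalonate pathway, had 11.16, 11.11 and 11.16. MSMO1 had the same value of 10.77 in all 3 cultures. DHCR7, a reductase late in the pathway, had 10.71, 10.71 and 10.77, and FDPS, FDFT1 and SQLE followed just outside the members. The median SD of this list was 0.033 at a median level of 9.27, beside 0.05 for all named clusters with means between 9 and 10.

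No gene of the cell cycle or immediate early lists was among the 300, which held 1.52% of all named clusters. At that share, lists of this size may well hold no member. All 32 cell cycle genes were above background, with a median at the 77.6th percentile. PCNA, the clamp of DNA polymerase, had 8.72, 8.98 and 8.87, and MKI67, a marker of cycling cells, had 7.52, 7.59 and 7.62. Of 28 immediate early genes 26 were above background, led by DUSP1, a phosphatase of MAP kinases, with 9.16, 8.97 and 9.07. EGR1 and FOS, targets of ERK signalling, had 8.0, 7.95 and 8.12, and 6.20, 6.36 and 6.44. EGR3 and NR4A3 averaged 3.51 and 2.62, below background.

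Of the proteasome and histone genes 4.55% and 8.16% were members, beside 1.52% of all named clusters. Of 44 proteasome genes 2 were members, PSMB1 and PSMD2, with means of 10.55 and 10.44, and the median lay at the 91.7th percentile. Of 49 histone genes 4 were members, H2AC13, H1-4, H2AC17 and H2BC5. H2AC13 had 11.34, 11.62 and 11.41 and H2AC17 had 10.44, 10.79 and 10.52. Culture 2 was highest for both. Histone genes are near copies of one another, so their clusters are uncertain.

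In all, 122 of the 300 stood on the lists planned for this work and 149 on any list, which leaves 151 on none. Of those, SCD and UBB were the highest. Others were ITGAV (11.53, 11.48 and 11.44) and ITGB1 (10.90, 10.84 and 10.91), subunits of matrix receptors, BSG (11.54, 11.46 and 11.50), a glycoprotein of the plasma membrane, and GNAS (11.50, 11.45 and 11.49), the G protein subunit through which the FSH receptor raises cyclic AMP. These 4 were picked after the values had been seen, for their roles at the cell surface.

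The spread between the cultures was smaller at high levels. Among the 300 the median SD was 0.046 and the median range 0.09, and 284 spanned less than 0.2. Among all named clusters above background the median SD was 0.084 and the median range 0.16, and at or below background the median SD was 0.145. By level, the median SD was 0.14 for means up to 3, 0.155 between 3 and 4, 0.085 between 6 and 7 and 0.038 above 11. Of the 13239 named clusters above background 558 (4.21%) spanned more than 0.5 and 20 more than 1.

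**Figure D4:**
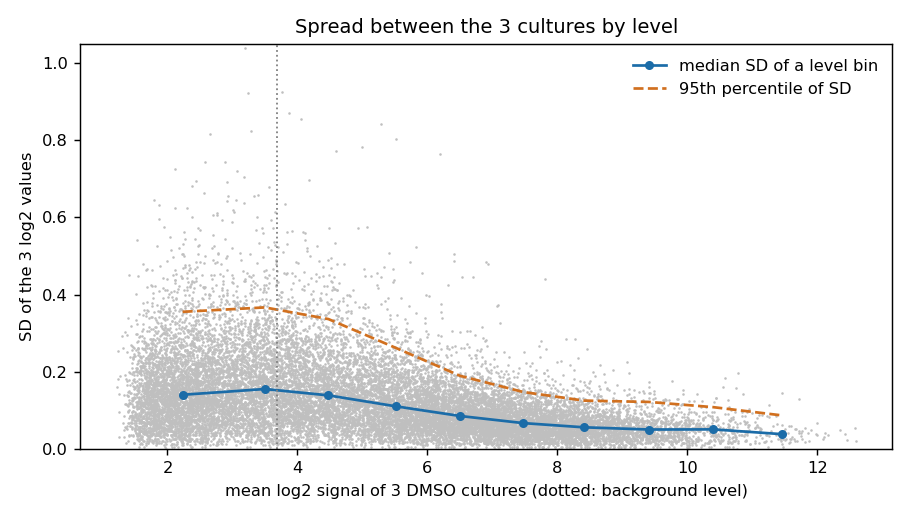
SD of the 3 log2 values of each named cluster (grey points, vertical axis) against its mean log2 signal (horizontal axis), with the median SD per level bin (blue line) and the 95th percentile (dashed orange line); the dotted line is the background level. The median SD is 0.155 for clusters with means between 3 and 4 and 0.038 for those above 11.

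The widest clusters above background were dim. RPS23 spanned 1.85, with 4.71, 2.86 and 3.70. ZWINT, which serves the kinetochore, had 5.22, 6.16 and 4.48, and MX2, an interferon-induced GTPase, had 5.88, 4.68 and 4.41. Of the 20 widest, 6 were microRNA genes and 4 had LOC names, and culture 1, 2 and 3 was the highest in 8, 7 and 5 of them. Culture 1, 2 and 3 was the lowest in 3, 7 and 10 of them.

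Among the members, RPLP2, a protein of the ribosomal stalk, was the widest, with 10.62 in culture 1, 10.73 in culture 3 and a value in culture 2 that was 0.38 above the lowest. H2AC17, RPS28 (10.39, 10.56 and 10.71) and POMP, a proteasome assembly factor (10.82, 10.86 and 10.57), followed. Culture 2 was the highest in 7 of the 10 widest members. LOC101902490 and LOC101907518, both among these 10, had identical values in each culture (10.40, 10.60 and 10.35) and cannot be told apart.

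The small differences between cultures ran along gene groups. Over all named clusters, 30.2%, 32.5% and 33.6% were highest in culture 1, 2 and 3. Of those above background, the shares were 30.7%, 29.7% and 35.4%. Of the oxidative phosphorylation genes, 52 of 82 were highest in culture 2, as were 47 of 79 ribosomal protein genes and 31 of 49 histone genes. Their median deviations in culture 2 from the mean of the 3 cultures were 0.048, 0.050 and 0.073 on the log2 scale. In culture 3, 22 of 34 genes of the extracellular matrix were highest, with a median deviation of 0.042. This was not particular to matrix genes. Culture 3 was also highest for 17 of 32 cell cycle, 15 of 28 cholesterol and 12 of 22 steroid synthesis genes, but for only 5 of 23 stromal genes. Of the genes of vesicle coats, 13 of 24 were highest in culture 1 and 2 in culture 2. The deviation of each culture was not tested, since every list has the same 3 arrays behind it.

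**Figure D5:**
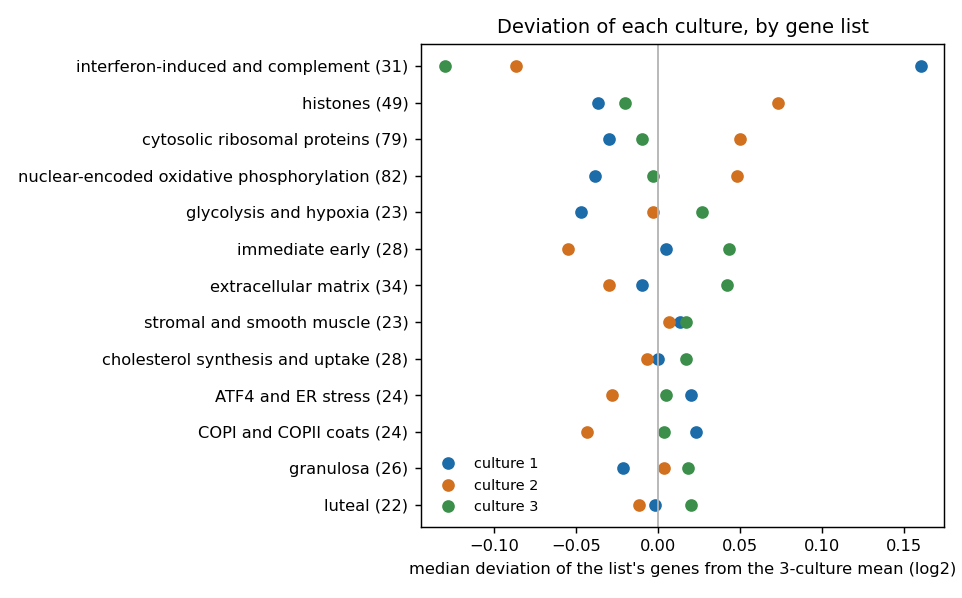
Median deviation of a list's genes from the mean of the 3 cultures, on the log2 scale (horizontal axis), for culture 1, 2 and 3 (coloured points) in 13 gene lists with the number of measured genes in brackets. Culture 1 lies at 0.16 for interferon-induced and complement genes, culture 2 lies right of the others for histone, ribosomal and oxidative phosphorylation genes, and granulosa and luteal genes stay within 0.03 of 0.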

How the data were processed

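RNA of 3 DMSO-treated cultures of primary bovine granulosa cells was read on Affymetrix bovine gene arrays. The deposited table gives log2 values, which the authors made by background correction, normalization over all 6 arrays and RMA summary of each transcript cluster, rounded to 2 decimals. They equal the series' own value table in 146490 of 146490 cells. The labelling named in the methods amplifies from the 3′ end, so probes far from it may read less. The accounts of the medium change after treatment differ, full in the methods and 70% in the labels. Columns were matched to samples by name, with 0 left unmatched, and the PD98059 arrays entered no value, although they took part in the authors' normalization.

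Of 24415 clusters, 16051 took their name from RefSeq accessions looked up in the gene table of ARS-UCD2.0, and 3632 took the only symbol listed for them. A further 736 match several genes, 2 carry only a date in place of a symbol, and 3994 have no name. A gene read by several clusters, as 257 of 19416 were, is represented in lists by its highest. No coordinates were used, since the sources used here do not give the build behind the clusters, and protein and promoter features of the members are not analysed here. Ranks, SDs (n = 3) and percentiles were computed with pandas 2.3.3 and numpy 2.4.6 under Python 3.11.15. A separate check covered ranking by the mean, the SD and quantile normalization on simulated levels with the same SD for all clusters. Cluster naming was checked on made-up entries. The code that made the ranks, percentiles and list counts given here was not itself run in that check. Precision is limited by there being only 3 arrays.

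The members and gene lists were chosen with earlier results of these data known, and 4 lists (translocon, vesicle coats, lysosome, interferon and complement) after the levels had been seen. By rule the text names the 5 markers, the first 30 clusters, up to 8 highest and 4 low defining genes per list, the 20 widest clusters above background, the 10 widest members and 3 clusters on each side of rank 300. The values of some single genes that the rule covers are not reported here. Other genes are named for their role and were chosen after their values were seen. One symbol that matched the histone pattern but is not a histone was taken out of that list after the values had been seen. Alternatives were the median of the cultures, each culture left out, repeated quantile normalization, centring on array medians, 1 cluster or the mean of clusters per gene, ranking all clusters, and other background levels.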

Additional observations from a re-analysis of the deposited data

How the results depend on the processing

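No paired analysis was possible because the results are levels of 1 group and come from no test. Of the 300 members, 296 were kept with the median of the cultures, 299 after repeated quantile normalization, 300 after centring, 295 with the mean of a gene's clusters, and between 294 and 297 with a culture left out. When unnamed clusters were ranked too, median percentiles moved up to 85.2 for granulosa, 80.3 for steroid synthesis, 93.0 for luteal, 39.6 for theca, 71.9 for stromal, 91.9 for ATF4 and ER stress, 88.1 for heat shock, 93.2 for oxidative and metal stress and 77.0 for apoptosis and growth arrest genes. A percentile rises where the added clusters lie mostly below it, and 62.8% of all clusters were above background, beside 67.3% of the named ones. Where the unnamed clusters lay in the ranking was not tested further. With the median of the cultures, granulosa genes had 83.9 and heat shock genes 86.4, and with 1 cluster per gene luteal genes had 92.3. With a culture left out, the medians lay between 83.3 and 84.1 for granulosa, 92.3 and 92.4 for luteal, and 86.7 and 87.0 for heat shock genes. With the background at the 95th percentile of distant tissue genes, 6.11, 8173 clusters were above it in place of 15321, and so were 19 granulosa genes in place of 22, 12 stromal in place of 20, 12 LH surge in place of 20, 16 immediate early in place of 26, 4 theca in place of 9, 2 surface epithelium in place of 9, 1 leukocyte in place of 8, 1 oocyte in place of 4, 0 endothelial in place of 3 and 3 distant tissue genes in place of 15. At a level of 5.23, the 99th percentile of olfactory receptors, theca numbered 4, leukocyte 2, oocyte 1, surface epithelium 4 and distant tissue genes 5, and at 3.02, their median plus 1, endothelial numbered 7, leukocyte 14, erythroid 4 and distant tissue genes 26. The median range of 0.16 became 0.19 over all named clusters, 0.0839 as an SD, and between 0.09 and 0.10 with a culture left out, where only 2 values enter. Of 35 single genes, 1 moved by more than its SD under the mean of a gene's clusters. Signal over background, probe affinity and the 3 cultures limit what the ranks can show, and ranks near or below 3.69 have no order.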

Other observations

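Interferon-induced and complement genes differed most between the cultures among the lists examined. This list was drawn up after the values had been seen, so its pattern is a description of 3 arrays. Of 31 measured genes 25 were above background, and 21 were highest in culture 1, where 30.2% of all named clusters were. The median deviation was 0.16 in culture 1, -0.09 in culture 2 and -0.13 in culture 3. IFI6, an interferon-induced mitochondrial protein and the only member of the 300, had 11.02, 10.77 and 10.78. MX1, an antiviral GTPase, had 8.32, 7.56 and 7.55, ISG15, a ubiquitin-like modifier, had 6.79, 6.18 and 5.97, and the complement genes C3 and CFB had 5.99, 5.04 and 5.20, and 5.73, 4.78 and 4.69. Culture 1 lay above both other cultures for each of these 5 genes. IFIT2 and CXCL10 were below background in all 3 cultures, and STAT2 and IRF7 were not highest in culture 1. The cause was not tested.

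Some of the 300 are genes known chiefly from other tissues. CSRP3, a protein of striated muscle, had 10.33, 10.36 and 10.33, XCL1, a chemokine of lymphocytes, had 10.34, 10.44 and 10.43, and UCHL1, a deubiquitinating enzyme of neurons and germ cells, had 10.76, 10.72 and 10.78. CRABP2, which carries retinoic acid, had 10.98, 10.97 and 10.87. The 3 cultures were close for each of them, and the identity of the RNA bound by these probes was not tested.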
